A study of Mus musculus with 16 samples.

Results

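Wnt proteins are secreted lipid-modified ligands, Frizzled (Fzd) proteins are their membrane receptors, and Sfrp and Dkk proteins are secreted antagonists. The Wnt family described here was every probe set (a group of probes that reads 1 transcript) whose only gene symbol in the platform annotation began with Wnt, Fzd, Sfrp or Dkk followed directly by a digit. This rule took 75 of the 45101 probe sets of the array, which named 38 of 18194 genes. They divided into 32 probe sets for 19 Wnt genes, 28 for 11 genes with Fzd symbols, 9 for 4 Sfrp genes and 6 for 4 Dkk genes. Fzd10os, an opposite-strand transcript at Fzd10 that encodes no receptor, was taken by the letter of the rule and is counted among the 11.

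A Wnt ligand bound to a Frizzled receptor and an Lrp5 or Lrp6 co-receptor stabilizes β-catenin, which then works with TCF/LEF factors on target genes. Other Wnt and Frizzled pairs act through planar cell polarity proteins or calcium. Sfrp proteins bind Wnt ligands outside the cell, whereas Dkk1 blocks the co-receptors. In the brain the pathway is known for patterning the embryonic neural tube, for growth of the hippocampus, for blood vessel growth and, in the cerebellum, for contacts between mossy fibres and granule cells.

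The arrays compared C57BL/6J mice homozygous for a CRISPR/Cas9 deletion of 4 bases (KO) with age-matched wild type littermates (WT). The deletion lies just behind the start codon of an exon, derived from a SINE repeat, of a brain-specific Pgc1α (Ppargc1a) transcript. Reference Pgc1α was left intact and the altered transcript is still made. The study treats the mice as functional knockouts, an interpretation it bases on protein in the brain and not on the arrays, and the KO mice came from 1 founder line. Brains were cleared of brain stem by hand and divided into the cerebellum (cb) and the rest of the brain (Br). There were 2 arrays in each of 8 groups, KO and WT, cb and Br, female and male. The ages of these animals were not given in the sources used here. The methods speak of independent specimens, 2 for each combination, matched by litter where that could be done. The labels do not say which arrays share a litter or whether arrays of the same number share an animal. Since each brain was divided, a cb and a Br array may come from the same mouse. The exact tests treat all arrays as independent, so their p-values hold only if that is so.

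The deposited values take only 5 distinct numbers, which were read as detection calls, with the highest level as detected and the next as marginal. No source used here states this reading. It rests on genes of known behaviour: every probe set of Actb and Gapdh was detected on all 16 arrays, both probe sets of Eif2s3y, a Y-linked gene, on 0 of 8 female and 8 of 8 male arrays, and 2 of the 3 Xist probe sets on 8 of 8 female and 0 of 8 male arrays. The third Xist probe set was detected on all 16 arrays, male ones included, and so does not bear the reading out. All 5 Ppargc1a probe sets were detected on all 16 arrays, which does not check the genotype, since the altered transcript is still made. A call does not measure a level, so genes seen on all arrays can differ in amount without a trace here. The arrays detected between 25517 and 28155 probe sets each. Markers followed the dissection: the share of granule cell probe sets detected was 85.1% ± 8.61 on cb arrays and 54.2% ± 9.50 on Br arrays, and that of striatal probe sets was 54.7% ± 9.88 and 85.2% ± 3.23 (SD, n = 8 arrays of each part, cb given first). Array 2 of the WT cb females stood apart from the other cerebellum arrays, with 66.7% of granule cell, 64.3% of Purkinje cell and 75.0% of striatal probe sets detected, against 81.0% to 95.2%, 100% and 43.8% to 62.5% on the other 7. The KO Br male array 1 detected 76.9% of pituitary probe sets, against 0 to 30.8% on the other 7 Br arrays.

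The RefSeq start sites of the family were rich in CG dinucleotides. Windows of 250 bases before the start (GRCm38.p6) were used for 25 of the 38 genes, 28 windows in all. Any family windows on a single chromosome had been left out, whereas the set of all windows kept that chromosome. Their median GC content was 69.4%, against 52.4% over all 32851 windows, and their median number of CG dinucleotides was 22, against 6. A GC box, the letters GGGCGG on either strand with overlapping matches counted separately, stood in 20 of the 28 windows (71.4%) and in 32.7% of all windows. The core motif of TCF/LEF factors, CTTTGAT on either strand, stood in 2 of the 28 (7.14%) and in 3.21% of all. The windows of 3 ligands whose calls differed between the brain parts are printed 5′ to 3′ with GC boxes in capitals, with that of Wnt7a, which was detected on every array, for contrast. The Wnt9a window, at chr11:59306680-59306929 on the plus strand, had a GC content of 84.4%, 48 CG dinucleotides and 5 GC boxes. The Wnt4 window, at chr4:137277385-137277634 on the plus strand, had 85.2%, 44 and 8. The Wnt8b window, at chr19:44493222-44493471 on the plus strand, had a GC content of 48.4%, 5 CG dinucleotides and 0 GC boxes. The Wnt7a window, at chr6:91411354-91411603 on the minus strand, had 77.6%, 34 and 6. The ligands thus differed widely in this window, and a match describes letters only.
Wnt9a: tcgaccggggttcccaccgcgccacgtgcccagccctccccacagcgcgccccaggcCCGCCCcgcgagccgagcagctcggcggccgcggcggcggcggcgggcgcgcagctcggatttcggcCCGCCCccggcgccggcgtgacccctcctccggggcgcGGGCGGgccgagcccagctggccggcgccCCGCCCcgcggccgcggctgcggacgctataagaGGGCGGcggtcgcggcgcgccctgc
Wnt4: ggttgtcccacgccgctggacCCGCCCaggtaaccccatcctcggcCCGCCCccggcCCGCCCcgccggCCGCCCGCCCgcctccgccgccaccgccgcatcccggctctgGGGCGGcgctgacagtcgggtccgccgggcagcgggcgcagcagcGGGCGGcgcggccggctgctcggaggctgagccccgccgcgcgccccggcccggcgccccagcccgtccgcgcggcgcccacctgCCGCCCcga
Wnt8b: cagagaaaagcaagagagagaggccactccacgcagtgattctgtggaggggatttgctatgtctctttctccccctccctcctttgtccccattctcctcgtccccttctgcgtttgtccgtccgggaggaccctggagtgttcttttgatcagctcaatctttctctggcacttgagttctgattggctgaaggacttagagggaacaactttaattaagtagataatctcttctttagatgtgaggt
Wnt7a: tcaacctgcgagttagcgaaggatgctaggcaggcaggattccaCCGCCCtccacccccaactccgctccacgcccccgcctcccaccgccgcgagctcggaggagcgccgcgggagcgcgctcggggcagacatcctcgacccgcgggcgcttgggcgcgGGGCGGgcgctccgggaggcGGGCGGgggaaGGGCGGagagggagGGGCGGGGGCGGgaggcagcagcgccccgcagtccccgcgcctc

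Receptors were detected more widely than ligands. Of the 75 family probe sets, 15 (20.0%) were detected on all 16 arrays, 30 (40.0%) on none and 30 (40.0%) on some, whereas over the whole table these shares were 48.0%, 27.0% and 25.0%. At 10 of the 28 Fzd probe sets, but only 2 of the 32 Wnt probe sets, the call was detected on every array. By gene, counting a gene as detected where any of its probe sets was, 13 genes were detected on all 16 arrays: the receptors Fzd1, Fzd2, Fzd3, Fzd4, Fzd5, Fzd6, Fzd7 and Fzd9, the ligands Wnt5a and Wnt7a, and the antagonists Sfrp1, Sfrp2 and Dkk3. Fzd3 guides axon tracts and Fzd4 is also the receptor of Norrin in retinal and cerebellar vessels. Wnt7a is known for its release from cerebellar granule cells onto mossy fibres.

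No probe set of 11 genes was detected on any array: Wnt1, Wnt2, Wnt2b, Wnt3, Wnt3a, Wnt8a, Wnt9b, Wnt10b, Wnt16, Dkk2 and Dkk4. Wnt1 and Wnt3a are known mainly from the embryonic neural tube. Wnt3, known in Purkinje cells of the cerebellum, is read here by 1 probe set. Probe sets differ in sensitivity, so these calls say only that this array did not detect the transcripts. The remaining 14 genes were detected on some arrays, from 1 array for Fzd10 to 15 for Wnt6, Wnt7b, Wnt11 and Sfrp5. Of the 1200 family values, 29 were marginal and 16 were at the 2 negative levels, whose meaning is not settled and which were counted as not detected.

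**Figure D1:**
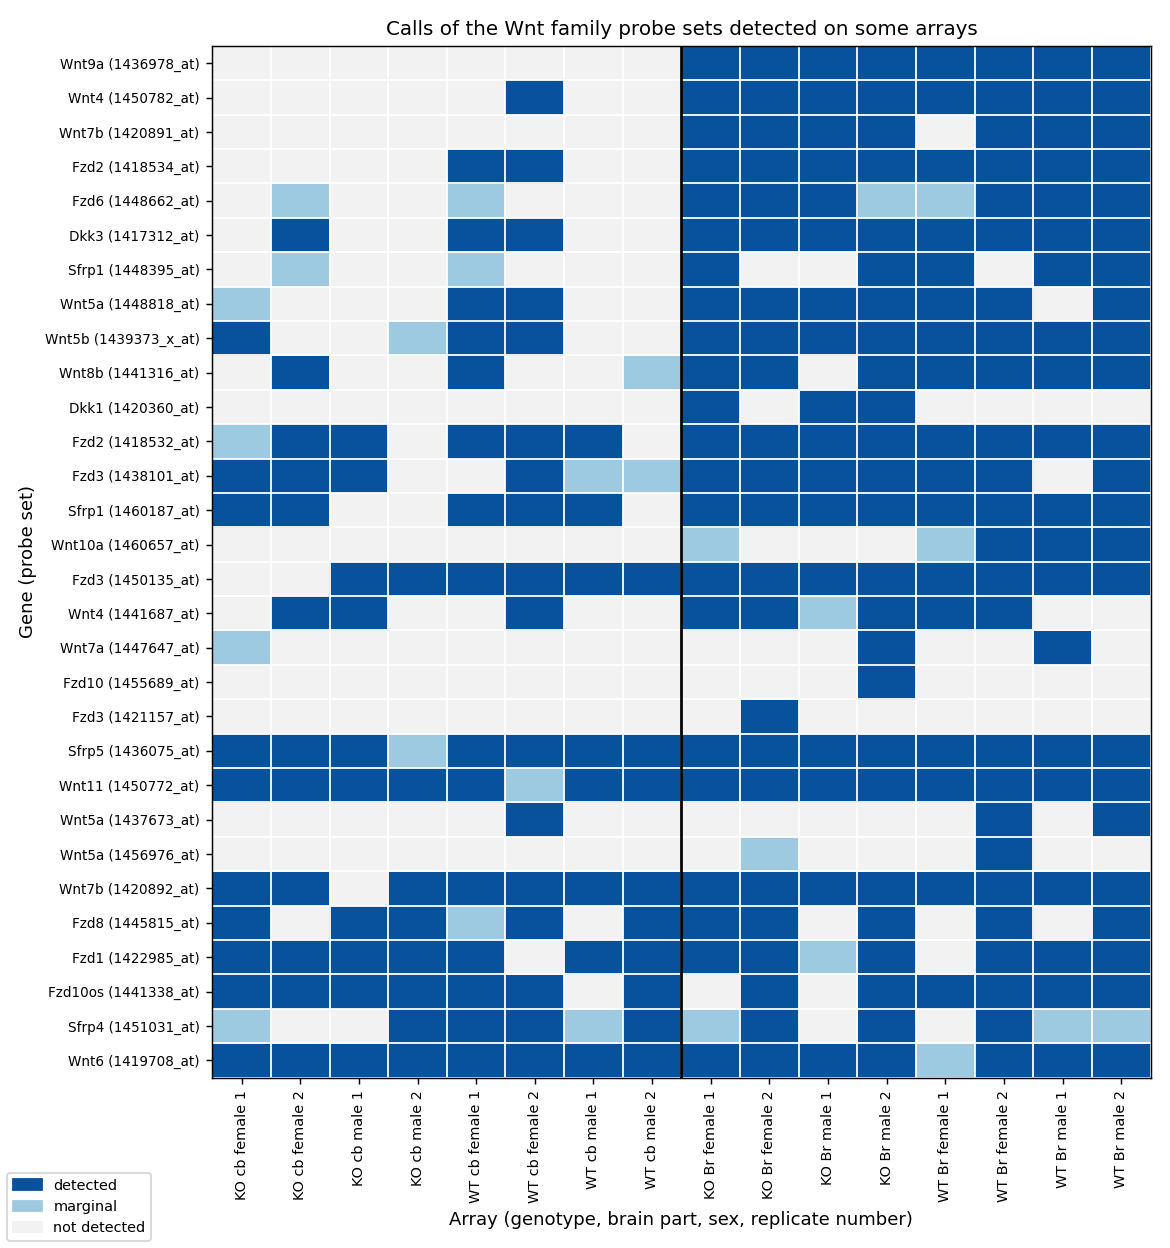
Calls of the 30 Wnt family probe sets that were detected on some but not all arrays, with a row for each probe set and a column for each array (cb left of the line, Br right of it), coloured by call. Rows run from those detected on more Br arrays (top) to those detected on more cb arrays (bottom). Wnt9a at the top was detected on 0 of 8 cb and 8 of 8 Br arrays.

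Fewer of the family's probe sets were detected on cb than on Br arrays, ligands most of all. Of the 75 probe sets, the cb arrays detected 23 to 32 (median 25) and the Br arrays 32 to 40 (median 37.5), and the 2 ranges met only at 32. The highest cb shares, 40.0% and 42.7%, were those of WT female 1 and of WT female 2, the array that stood apart in its markers, and the other 6 cb arrays lay between 30.7% and 36.0%. The share detected was 34.8% ± 4.42 in cb and 48.7% ± 4.28 in Br (SD, n = 8 each), a difference of -13.8 percentage points, while over all probe sets it was 59.1% ± 1.32 and 60.3% ± 1.05, a difference of -1.19. For the Wnt ligands the share was 19.5% ± 4.94 in cb and 37.9% ± 5.13 in Br. For Fzd probe sets it was 51.8% ± 3.82 in cb and 60.7% ± 5.40 in Br. The 9 Sfrp and 6 Dkk probe sets had 44.4% ± 8.40 and 22.9% ± 8.63 in cb, against 55.6% ± 5.94 and 39.6% ± 8.63 in Br. Some lists of region and cell type markers also had lower shares in cb, as striatum did above. The choroid plexus share was 66.1% ± 17.8 in cb and 84.8% ± 2.53 in Br, and that of cortex and hippocampus 52.9% ± 4.93 and 65.4% ± 5.81 (SD, n = 8 each). Other lists were higher in cb, as granule cells were above. Hindbrain and spinal cord had 27.1% ± 27.0 in cb and 17.7% ± 11.3 in Br, and pituitary 26.9% ± 19.3 and 17.3% ± 26.9. Endothelium and pericytes were nearly equal, at 76.4% ± 2.57 and 77.1% ± 1.96. The part of these regions and cell types in the family's difference was not tested. In bulk tissue, fewer cells of a type and less RNA per cell cannot be told apart.

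**Figure D2:**
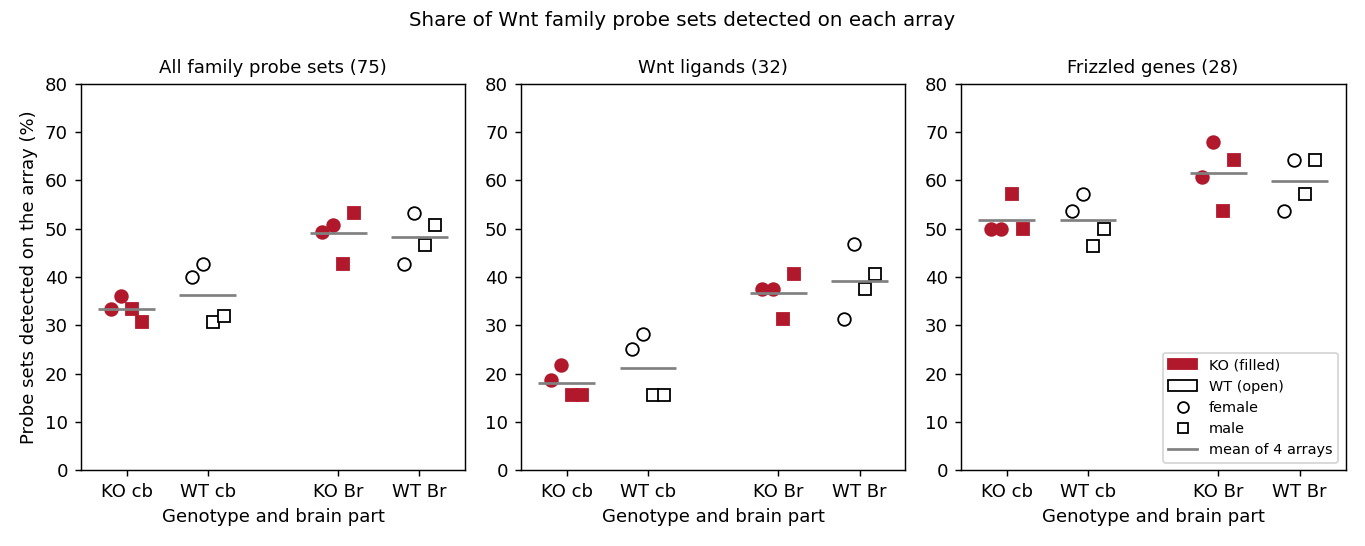
Share (%) of family probe sets detected on each array, for all 75, the 32 Wnt and the 28 Fzd probe sets, by genotype and brain part. Each point is 1 array (filled for KO, open for WT, circles for females, squares for males) and the line is the mean of 4. Over all 75 the cb arrays lie at 30.7% to 42.7% and the Br arrays at 42.7% to 53.3%.

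Each probe set was compared between 8 cb and 8 Br arrays by a two-sided Fisher's exact test, and the p-values were adjusted over all 45101 by the method of Benjamini and Hochberg. No family probe set reached an adjusted p under 0.05, nor did any other (0% of all). The smallest p that 8 against 8 arrays can give is 0.000155, and at least 141 probe sets would have had to reach it for an adjusted call. At an unadjusted p under 0.05, 10 of the 75 (13.3%) differed, all of them detected on fewer cb arrays, where 1.73% of all probe sets passed in that direction, 1.04% in the other and 2.76% in either. With adjustment only over the 3873 probe sets whose number of detecting arrays lets some split reach p under 0.05 (the limited adjustment), 5 of the 14 such family probe sets were called, against 17.1% of the 3873. Those 5 were of Wnt9a, Wnt4, Wnt7b, Fzd2 and Fzd6. Counting arrays alone, 4 family probe sets were detected on more cb arrays, 25 on more Br arrays and 46 on as many in both, whereas 9.64% of all probe sets were detected on more cb arrays and 12.7% on more Br arrays. The 4 on more cb arrays, for Wnt6, Fzd1, Fzd10os and Sfrp4, each differed by 1 array.

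Among the ligands, Wnt9a, known for its part in joint formation, showed the only complete switch. Its probe set 1436978_at was detected on 0 of 8 cb arrays and on 8 of 8 Br arrays (p = 0.000155, adjusted p = 0.0501, and 0.0043 with the limited adjustment, Fisher's exact test). A switch of that direction was seen at 0.255% of all probe sets. The other Wnt9a probe set, 1425889_at, was detected on none of the 16 arrays. Wnt4, a ligand known from kidney and ovary development, was detected with 1450782_at on 1 of 8 cb arrays, WT female 2, which stood apart in its markers, and on 8 of 8 Br arrays (p = 0.0014, adjusted p = 0.161 and limited 0.0138, Fisher's exact test). Its other probe set, 1441687_at, was detected on 3 cb and 5 Br arrays. Wnt7b, which promotes dendrite growth and, with Wnt7a, brain vessel growth, had 1420891_at on 0 of 8 cb and 7 of 8 Br arrays, all but WT female 1, with the same p-values as Wnt4. The second Wnt7b probe set, 1420892_at, was detected on 7 cb and 8 Br arrays, so Wnt7b as a gene was seen in both parts.

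Wnt5b, Wnt5a and Wnt8b passed the unadjusted threshold with some cb arrays among the detected. Wnt5b, a close relative of Wnt5a, was detected with 1439373_x_at on 3 of 8 cb arrays, KO female 1 and both WT females, and on 8 of 8 Br arrays (exact p = 0.0256). Wnt5a, which signals mostly without β-catenin, had 1448818_at on 2 of 8 cb arrays, both WT female, and on 7 of 8 Br arrays (exact p = 0.0406), while 1436791_at read it on all 16. Wnt8b, a marker of the developing hippocampal field, had 1441316_at on 2 of 8 cb arrays, KO female 2 and WT female 1, and on 7 of 8 Br arrays (exact p = 0.0406). The other probe sets of Wnt5b and Wnt8b were detected on no array. Each of the 3 had an adjusted p of 1. The name of the Wnt5b probe set ends in x_at, which marks probes that may also bind other sequences.

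The remaining 4 were of the receptors Fzd2 and Fzd6 and the antagonists Sfrp1 and Dkk3. Fzd2 was detected with 1418534_at on 2 of 8 cb arrays, both WT female, and on 8 of 8 Br arrays (exact p = 0.00699, limited adjusted p = 0.0409). Fzd6, known from planar polarity of hair, was detected with 1448662_at on 0 of 8 cb arrays, 2 of them marginal, and on 6 of 8 Br arrays, the other 2 marginal, with the same p-values. The adjusted p over all probe sets was 0.476 for both (Fisher's exact test). Sfrp1 had 1448395_at on 0 of 8 cb and 5 of 8 Br arrays (exact p = 0.0256). Dkk3, a divergent Dickkopf protein, had 1417312_at on 3 of 8 cb arrays, KO female 2 and both WT females, and on 8 of 8 Br arrays (exact p = 0.0256), and the adjusted p of these antagonists was 1. Each of these 4 genes, and Wnt5a, had another probe set on all 16 arrays, so the gene itself was detected in both parts. Of their remaining probe sets, Fzd2 1418532_at and Sfrp1 1460187_at were each detected on 5 of 8 cb and 8 of 8 Br arrays (exact p = 0.2), Wnt5a 1437673_at on 1 cb and 2 Br arrays and Wnt5a 1456976_at on 0 cb and 1 Br array, and the others on none.

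**Figure D3:**
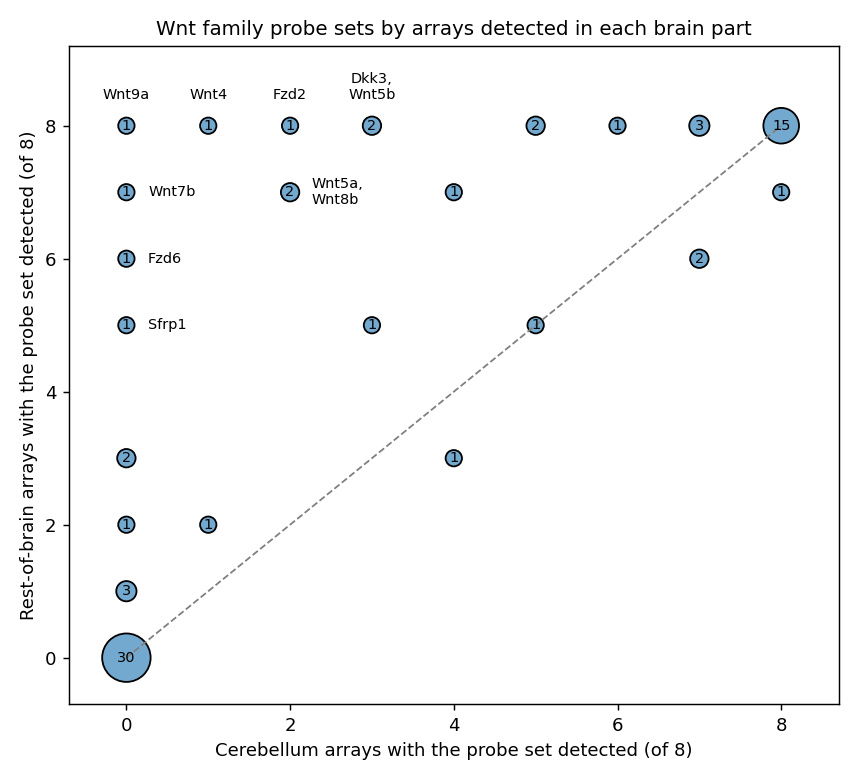
Number of cb arrays (x axis, of 8) and Br arrays (y axis, of 8) on which each of the 75 family probe sets was detected; the number in a circle counts probe sets, its area grows with that count, and the dashed line marks equal numbers. Genes are named where the exact p is under 0.05. The 25 probe sets above the line were detected on more Br arrays and the 4 below it on more cb arrays.

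By gene, 4 of the 38 were detected on fewer cb arrays at an unadjusted p under 0.05, and 0 on more, where 1.56% and 0.846% of all 18194 genes passed in those directions. Wnt9a had 0 cb and 8 Br arrays, Wnt4 and Wnt5b 3 and 8 each, and Wnt8b 2 and 7. After adjustment over genes Wnt9a alone of the family was called (adjusted p = 0.0464, Fisher's exact test), as were 0.335% of all genes. The 13 genes detected on all arrays and the 11 detected on none could not differ by this count.

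The 10 probe sets were detected on no male cb array of either genotype. On WT female cb arrays 6 of the 10 were detected, and on KO female cb arrays 3. The 10 had been picked from these same calls for being detected on few cb arrays. This split therefore describes them and is no result about sex or genotype. With both WT female cb arrays left out, the same 10 passed an unadjusted p under 0.05 and 0 an adjusted one. That setting was not planned. It removed arrays on which 6 of the 10 were detected, which favours a difference for those 6, so it is no check on the 10. Among WT arrays alone and among females alone only Wnt9a passed the unadjusted threshold, among KO arrays alone 5 probe sets and among males alone 6. No share of all probe sets is given for these or the other settings of this paragraph, so the counts are no result about the family. With 4 against 4 arrays the smallest exact p is 0.0286, and only a complete switch gives it. With marginal calls counted as detected, 7 passed: those of Sfrp1, Wnt5a, Wnt5b and Wnt8b were lost, and Wnt10a 1460657_at was gained with 0 of 8 cb and 5 of 8 Br arrays (exact p = 0.0256).

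No family probe set was called between KO and WT arrays. The share detected was 33.3% ± 2.18 in KO cb and 36.3% ± 5.90 in WT cb, and 49.0% ± 4.54 in KO Br and 48.3% ± 4.67 in WT Br (SD, n = 4 each). The arrays of the 2 genotypes overlapped in both parts, at 30.7% to 36.0% in KO cb and 30.7% to 42.7% in WT cb, and at 42.7% to 53.3% in KO Br and in WT Br. Among the classes, the Sfrp share was 38.9% ± 6.42 in KO cb and 50.0% ± 6.42 in WT cb, a difference of -11.1 percentage points over 9 probe sets, and the Dkk share was 45.8% ± 8.33 in KO Br and 33.3% on each of the 4 WT Br arrays, a difference of 12.5 over 6 probe sets. These shares were not tested. Over all 16 arrays 10 probe sets were detected on more KO arrays, 17 on more WT arrays and 48 on as many of both, and none differed by more than 3 arrays. By Fisher's exact test, 0 of the 75 passed an adjusted p under 0.05 over all arrays, in cb or in Br, as did 0% of all probe sets in each. At an unadjusted p under 0.05 there were also 0, with 0.0843% of all probe sets passing over all arrays, 0.0377% within cb and 0.02% within Br. Only 14 of the 75 over all arrays, 2 within cb and 0 within Br had a number of detecting arrays that lets any split pass. The 0 within Br was thus fixed in advance, and that within cb nearly so. With 4 against 4 arrays the smallest exact p is 0.0286, so an adjusted call within a part needed very many probe sets to switch. The smallest exact p of the family was 0.2 over all arrays, 0.429 within cb and 0.143 within Br. Such p-values do not show that the genotypes were alike, since the calls would miss any change in the level of a transcript that stayed detected.

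The exact p of 0.143 in the rest of the brain belonged to an antagonist and a ligand with opposite calls. Dkk1, the blocker of Lrp5 and Lrp6, was detected with 1420360_at on 3 of 4 KO Br arrays (female 1 and both males) and on 0 of 4 WT Br arrays. The other Dkk1 probe set, 1458232_at, was detected on no array of either genotype. Wnt10a, known from teeth and hair, was detected with 1460657_at on 0 of 4 KO Br arrays, where KO female 1 was marginal, and on 3 of 4 WT Br arrays, the fourth marginal. Neither was detected on any cb array. Leaving out KO Br female 2 gave Dkk1, and leaving out WT Br female 1 gave Wnt10a, a complete switch (exact p = 0.0286, adjusted p = 1). The single array that detected most pituitary markers, KO Br male 1, was 1 of the 3 with Dkk1, and the part of those markers in the call was not tested.

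Within one sex and brain part, 2 KO arrays stood against 2 WT arrays, where the smallest exact p is 0.333, so that switches are given as counts. In the female cerebellum 0 family probe sets were called on the KO pair alone and 4 on the WT pair alone. Of all probe sets, 0.743% switched in the first direction and 0.71% in the second. The 4 were Fzd2 1418534_at, Fzd3 1450135_at, Wnt5a 1448818_at and Sfrp4 1451031_at, the last 2 marginal on KO female 1. Fzd3 1450135_at was detected on all of the other 14 arrays and was missing only on the 2 KO cb female ones. Fzd2, Fzd3 and Wnt5a each had another probe set on all 16 arrays. Fzd3 1438101_at leaned the other way here, on both KO and 1 of the 2 WT female cb arrays. Fzd3 1421157_at was detected only on KO Br female 2, and 1420087_at on no array. Sfrp4, a secreted antagonist, has no other probe set and was detected on 4 cb and 3 Br arrays in all.

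Marker shares on these female cerebellum arrays ran in different directions. The shares of thalamus and midbrain probe sets detected were 63.0% and 66.7% on the 2 KO arrays and 70.4% and 77.8% on the 2 WT arrays. Striatal shares were 50.0% on both KO arrays, and 50.0% and 75.0% on the WT arrays, so that only WT female 2, the array that stood apart, was higher. Those of cortex and hippocampus were 53.8% on both KO arrays, and 53.8% and 46.2% on the WT arrays. Hindbrain and spinal cord shares were higher on the KO arrays, 66.7% on both, against 41.7% and 8.33% on the WT arrays and 8.33% on every male cb array. Those of the choroid plexus differed between replicates within each genotype, with 92.9% and 64.3% on the KO arrays and 85.7% and 50.0% on the WT arrays. The part of these regions in the 4 calls was not tested.

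In the other 3 combinations switches were few. In the female rest of the brain there were 0 in either direction, with 0.45% of all probe sets detected on the KO arrays alone and 0.49% on the WT arrays alone. The male cerebellum also had 0 in either direction, with 0.313% and 0.792% of all probe sets. In the male rest of the brain Dkk1 1420360_at was detected on both KO arrays alone and Wnt10a on both WT arrays alone. Of all probe sets, 0.576% switched as that of Dkk1 did and 0.448% as Wnt10a did.

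No family probe set was called between the sexes. The share detected was 43.5% ± 7.12 on female and 40.0% ± 9.45 on male arrays (SD, n = 8 each), with both brain parts in each group. By Fisher's exact test 0 of the 75 probe sets passed an adjusted p under 0.05 (0% of all) and 0 an unadjusted one (0.286% of all). The smallest exact p was 0.132, that of Wnt4 1441687_at, detected on 6 of 8 female and 2 of 8 male arrays.

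Beyond ligands, receptors and these antagonists, 7 lists of other Wnt pathway genes were read, with 234 probe sets together and 92 of 96 genes on the array. By unadjusted exact p, 10 of the 234 (4.27%) were detected on fewer cb arrays and 4 (1.71%) on more, against 1.73% and 1.04% of all probe sets. The separate lists are small, and those of the β-catenin relay (2.99% on fewer), the targets (3.33%) and the planar polarity and calcium branch (3.03%) lay near the share of all probe sets, so their counts are no result about the lists and their genes are named as members with these calls. None passed after adjustment over all 45101 probe sets. The list of other secreted inhibitors had 2 of 19 on fewer cb arrays, Dkkl1 (a Dickkopf relative, 0 of 8 cb and 8 of 8 Br arrays) and Frzb (a Wnt-binding protein of the Sfrp kind, 3 and 8). R-spondins and their receptors had 1 of 15 in each direction. Rspo1, a secreted amplifier of Wnt signals, was detected on 1 of 8 cb and 8 of 8 Br arrays, whereas Lgr5, an R-spondin receptor that is also a β-catenin target, was detected on 8 of 8 cb and 1 of 8 Br arrays (p = 0.0014 for both, Fisher's exact test, adjusted p = 0.161). The co-receptor Lrp6 was detected with 1451022_at on 7 cb and 1 Br arrays, though its other probe set was on all 16, and the glypican Gpc4 with 1436514_at on 2 and 8.

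Downstream, the β-catenin relay had 2 of 67 probe sets on fewer cb arrays, of Dact3 (0 cb and 8 Br arrays), which antagonizes Dishevelled, and Btrc (2 and 8), a ubiquitin ligase subunit that marks β-catenin for breakdown. Among TCF/LEF factors and their partners 1 of 25 passed, the co-repressor Tle4 (3 and 8). Of the widely used targets, Tnfrsf19 was detected with 1415921_a_at on 0 cb and 7 Br arrays, and Lgr5 the other way round. Of the planar polarity and calcium branch 2 of 66 were on fewer cb arrays, both of Camk2a, the forebrain kinase subunit (0 and 8, and 2 and 8), and 2 on more, of Camk2d (8 and 2) and Nfatc3 (7 and 2). Of these genes Gpc4, Lrp6, Frzb, Btrc, Dact3, Tle4, Tnfrsf19, Camk2a, Camk2d and Nfatc3 each had another probe set on all 16 arrays, whereas Rspo1 and Dkkl1 have 1 probe set each and the other of Lgr5 was on none. Each list thus had 1 or 2 probe sets on fewer cb arrays, and 4 of the 7 lists also had 1 or 2 on more. Of the 7 lists, 0 probe sets passed an unadjusted p under 0.05 between KO and WT, over all arrays or in either brain part, or between the sexes.

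**Figure D4:**
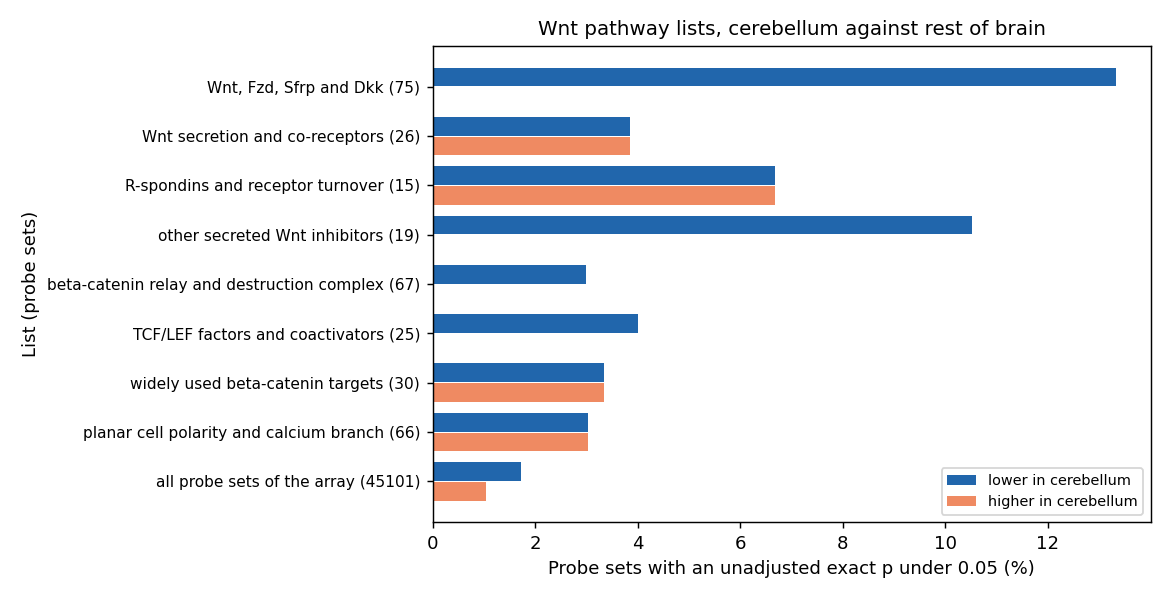
Share (%) of probe sets with an unadjusted exact p under 0.05 between 8 cb and 8 Br arrays, for the Wnt family, the 7 other pathway lists and all probe sets, with the number of probe sets in brackets. Dark bars count probe sets detected on fewer cb arrays and light bars those on more. The family has 13.3% on fewer and 0 on more, against 1.73% and 1.04% of all probe sets.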

How the data were processed

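Total RNA from cb and Br of KO and WT mice was hybridized to 16 Affymetrix 3′ arrays, 2 per genotype, sex and brain part, grouped by the sample labels. The authors' methods and the submitters' processing notes name the MAS5 algorithm, while their results name RMA and LSTNR. Their methods name a human array, whereas the probe sets and the platform annotation are those of a mouse array. The deposited score is 1 of 5 distinct numbers per probe set and array, for which no scale was stated, and a value above 5e-38 was taken as detected. Gene names came from the platform annotation, in which 34958 probe sets have 1 symbol, 932 several and 9211 none here. The members, lists and tests were chosen with earlier results of these data known.

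Detected and other arrays were compared per probe set by a two-sided Fisher's exact test, adjusted after Benjamini and Hochberg over the whole table of 45101. Precision is limited by how many arrays there are. The steps were tested on simulated calls. Member genes were named with their calls where a probe set had an unadjusted p under 0.05 in a comparison or switched between KO and WT within a sex and brain part, other pathway genes where p was under 0.05 between the brain parts, and the remaining members by whether they were detected on all, some or no arrays. No label ties replicate numbers to animals or litters, and they were not used for pairing. Alternatives were marginal calls as detected, genes in place of probe sets, probe sets ending in x_at or s_at left out, adjustment over fewer probe sets, subsets of arrays, a replicate block, and permutation of genotype within sex and brain part (1296 arrangements). Promoter windows were taken from RefSeq (GRCm38.p6). Scripts ran in Python 3.11.15 (scipy 1.17.1, pandas 2.3.3, numpy 2.4.6) and figures were drawn with matplotlib 3.10.9.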

Additional observations from a re-analysis of the deposited data

Results flagged for a closer look

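Of the 30 sets of 4 arrays examined for a single array far from the others, 3 held one. The sets were KO and WT, cb and Br, for the family and its classes and for the calls of all probe sets. Chance alone marks about 1 in 20 where values are not tied, but in each of the 3 sets the other 3 arrays had equal shares. Any odd value then stands out however small, so the rate of 1 in 20 does not apply to them. KO cb male 1 detected 57.1% of the Fzd probe sets, while the other 3 KO cb arrays detected 50.0%. KO cb female 2 detected 33.3% of the Dkk probe sets, against 16.7% on the other 3 KO cb arrays. KO Br female 2 detected 33.3% of the Dkk probe sets, against 50.0% on the other 3 KO Br arrays. Both Dkk values rest on 1 of 6 probe sets, Dkk3 1417312_at in the cerebellum and Dkk1 1420360_at in the rest of the brain.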

How the results depend on the processing

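Between the brain parts, the count of family probe sets called after adjustment was 0, and 1 by gene (Wnt9a) or 5 with adjustment only over the probe sets able to reach the threshold. Leaving out each array in turn gave 1 to 2 calls by Fisher's exact test, Wnt9a each time, with Wnt4 (adjusted p = 0.0273) without WT cb female 2 and Wnt7b (adjusted p = 0.0455) without WT Br female 1. A switch of 7 against 8 arrays has the same smallest p as one of 8 against 8, and over all arrays 140 probe sets switched where 141 were needed. The count at an unadjusted p under 0.05 was 10, stayed at 10 with each array left out, and was 4 by gene, 5 with the replicate block, 1 in WT arrays, 5 in KO arrays, 6 in males and 1 in females. The counts within a genotype or a sex have no share of all probe sets beside them, and their differences are no result about the family. No pairing by replicate number was found, as deviations of same-numbered arrays correlated at -0.03 to 0.07. Specimens were matched by litter where possible, but no label ties a number to a litter. The 5 probe sets lost under the block, of Dkk3, Sfrp1, Wnt5a, Wnt5b and Wnt8b, each had p = 0.0625 by its exact sign test. That is the smallest p this test can give when 5 pairs differ in their calls, so these probe sets could not pass it. Any part of litters was not tested.

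Between KO and WT, unadjusted calls remained at 0 over all arrays and in the cerebellum under the alternatives run, and were 0 to 1 in the rest of the brain with 1 array left out. Within a brain part these counts could hardly move. A replicate block of 4 pairs gives no p under 0.125, and with no array left out only 2 family probe sets in cb and 0 in Br could reach p under 0.05. Between the sexes they were 0 to 1 (Wnt4 1441687_at, p = 0.0406, Fisher's exact test) with 1 array left out. The 6 switches within sex and brain part were 3 by gene, and 6 to 11 with 1 array left out, 10 without WT cb female 1, KO Br male 1 or KO Br male 2 and 11 without WT Br female 2. Leaving out 1 array makes the rule for a switch looser in its combination, so this count could only stay or rise. The cb minus Br share lay between -15.0 and -13.2 percentage points and the KO minus WT share between -2.90 and 0.405 as arrays were left out.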
